A study of Prunus sibirica with 30 samples.

Results

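Non-specific lipid-transfer protein 1, gene PaF106G0600025011.01, was followed through 30 flower libraries of Prunus sibirica, the Siberian apricot. It was 1 of the 143 genes in the table used here, and it was selected on its measured values in these libraries, so its levels and differences are a description and carry no test. It carries the name of its best Swiss-Prot match, and it was the 1 gene of the table with that name and the 1 gene with the deposited domain of the protease inhibitor, seed storage and lipid-transfer family. The gene lies on the plus strand of chromosome 6, from 25666838 to 25667378, in the coordinates of the deposited table, whose genome build the sources do not name. Its length of 541 bases equals this span, which held for 20 of the 143 genes.

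Non-specific lipid-transfer proteins are small, secreted, cysteine-rich plant proteins that hold fatty acids and other lipids in a hydrophobic cavity. Many are made in the epidermis, where they are thought to carry cutin and wax precursors towards the cuticle, and the family is counted among the pathogenesis-related proteins. Transcripts of several family members rise in the cold in cereals and other plants, and the family is known in stone fruits for its allergens.

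The clones sampled at bloom were CR, clone 453, described as strong in frost resistance, and NC, clone 371, described as weak and used as the control. Flowers of each clone were held at -4 °C and collected after 0 h, 15 min, 30 min, 1 h and 2 h, with 3 libraries in each of the 10 groups. Each clone is 1 genotype, and since all flowers were kept at the same temperature, the effects of cold, of time and of handling cannot be told apart. Pistil is given as the tissue in the labels, but the protocol speaks of flowers and flower buds. Whether the replicates of a group are different trees is not said, so the p-values cover the spread between these samples alone, which may be technical. Of the marker names listed for pistil, petal and epidermis, 0 were in the table, so the labelled tissue was not checked. Of the markers of green tissue 7 genes were there, and of those of pollen 1, the Olee1-like protein.

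Levels are in FPKM as the authors deposited them, that is, fragments per kilobase of a gene and per unit of library size. The 143 genes, whose mean FPKM ran from 3835 to 594, took 1731103 to 3544827 reads per library. That was 9.75% (NC 2 h, replicate 3) to 20.5% (CR 0 h, replicate 1) of the library size implied by the FPKM values. The table holds abundant genes alone, and with an incomplete last entry it may be cut. "All genes", library medians, ranks and shares called refer to these 143 genes and not to the whole transcriptome. Other lipid-transfer genes may lie outside the table. The lipid-transfer protein gene was behind 9659 to 14120 of the table's reads in CR libraries and 5082 to 14452 in NC libraries. The counting error of a single value was therefore 0.842% to 1.02% in CR and 0.832% to 1.40% in NC. This was far below the coefficient of variation between the 3 libraries of a group, which was 6.62% to 17.2% in CR and 6.29% to 24.1% in NC.

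In CR the gene was at a high level before the frost, and its later means lay within a narrow range around it. It had 1380.5, 1023 and 1053 FPKM in the CR 0 h libraries, 1319, 995 and 1009 FPKM after 15 min, and 1348, 1150.2 and 959.7 FPKM after 30 min. After 1 h the CR libraries had 985, 973 and 1095 FPKM, and after 2 h they had 1175, 1132 and 1375 FPKM. The values of every later CR group overlapped those of CR at 0 h. The CR means were 1152 ± 198 FPKM at 0 h, 1108 ± 183 FPKM after 15 min, 1153 ± 194 FPKM after 30 min, 1018 ± 67.4 FPKM after 1 h and 1227 ± 129.7 FPKM after 2 h (SD, n = 3 each). The highest of these 5 means was 1.21 times the lowest, a range of 209.7 FPKM that was close to the largest SD within a group.

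In NC the level was lower at the start and high at 15 min and again at 2 h. The gene had 770.4, 548 and 576 FPKM in the NC 0 h libraries, 1191, 978 and 921 FPKM after 15 min, and 702, 595 and 903 FPKM after 30 min. After 1 h the NC libraries had 678, 769 and 736 FPKM, and after 2 h they had 1245, 785 and 918 FPKM. All 3 libraries at 15 min and all 3 at 2 h lay above every NC 0 h library, whereas those at 30 min and at 1 h overlapped the 0 h libraries. The NC means were 631 ± 121 FPKM at 0 h, 1029.9 ± 142 FPKM after 15 min, 734 ± 156 FPKM after 30 min, 728 ± 45.8 FPKM after 1 h and 983 ± 236 FPKM after 2 h (SD, n = 3 each). The highest mean was 1.63 times the lowest, a range of 399 FPKM. In bulk samples such as these, fewer cells of a type and less RNA per cell cannot be told apart.

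**Figure D1:**
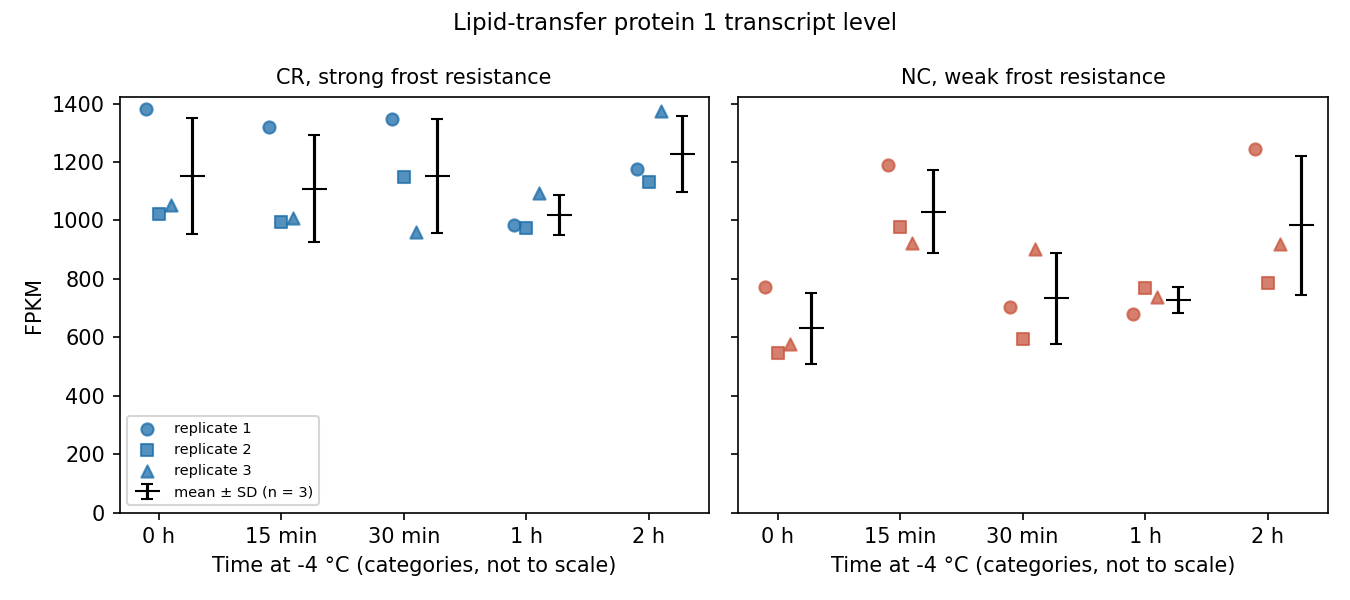
FPKM of lipid-transfer protein 1 against time at -4 °C for CR and NC, with 1 point per library and the mean and SD of 3 libraries per group. The CR libraries lie between 959.7 and 1380.5 FPKM at all 5 times, and NC libraries reach this range only at 15 min and 2 h, with all 3 below it at 0 h.

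Over all times, the CR libraries ran from 960 to 1380 FPKM with a median of 1095 FPKM, and the NC libraries ran from 548 to 1245 FPKM with a median of 770.4 FPKM. Each of the 15 CR libraries lay above every NC 0 h library. Only 3 NC libraries reached the lowest CR library: replicates 1 and 2 at 15 min and replicate 1 at 2 h. In the order of the means CR 2 h stood highest, followed by CR 30 min, CR 0 h, CR 15 min, NC 15 min, CR 1 h, NC 2 h, NC 30 min, NC 1 h and NC 0 h. The libraries of every pair of neighbours in this order overlapped. Between NC 2 h and NC 30 min the gap of 249 FPKM was larger than the larger of their SDs, 236 FPKM, and this was so for no other pair of neighbours.

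Within groups the gene was more variable than most of the table. Its SD within groups on the log2(FPKM + 1) scale was 0.23, against a median of 0.17 over all genes, and 28 genes had a larger one. Replicate 1 was the highest library in 3 of 5 groups in CR and in 3 of 5 groups in NC. In NC at 30 min replicate 3 was the highest with 903 FPKM. The same library had the highest values of its group for ARG2, metallothionein type 2 and RD19A, at 3714, 2159 and 1450.0 FPKM. RCI2B was also highest there, at 1087 FPKM, whereas HSP90-2 was lowest there, at 461 FPKM.

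Differences on the log2(FPKM + 1) scale were taken from a limma fit of 10 group means to all 30 libraries, with a standard error (SE) of 0.17 for a difference between any pair of groups. In CR the gene differed from 0 h by -0.06 after 15 min, 0.00 after 30 min, -0.17 after 1 h and 0.10 after 2 h, none larger than its SE. In NC it differed from 0 h by 0.71 after 15 min, 0.21 after 30 min, 0.22 after 1 h and 0.63 after 2 h. The NC differences at 15 min and 2 h, 1.64-fold and 1.55-fold, were each more than 3 SEs, and those at 30 min and 1 h were little larger than 1 SE. These comparisons within a clone share the 3 libraries at 0 h.

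The differences of all genes were taken at the same times. At 15 min in NC the median difference of all genes was 0.04, and 1 gene of the 143 had a larger difference than the lipid-transfer protein. At 2 h in NC the median of all genes was -0.39, and 5 genes had a larger difference. By limma with Benjamini-Hochberg adjustment over the 143 genes and a threshold of 0.05, 0.699% of genes were higher and 1.40% lower at 15 min in NC, and 4.90% were higher and 62.9% lower at 2 h in NC. The share called at 2 h in NC was 42.0% without replicate 1 of NC at 0 h and 43.4% without replicate 2 of NC at 2 h, against 67.8% with all libraries. With the median of its own library taken off each log2 value, called the relative scale here, 9.09% of genes were higher and 5.59% lower at 15 min in NC, and 14.7% were higher and 26.6% lower at 2 h. At 15 min the share as deposited ran from 0% to 4.20% as each of the 6 libraries was left out. The gene was chosen on these same contrasts, and nothing is read from where it stands among them.

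**Figure D2:**
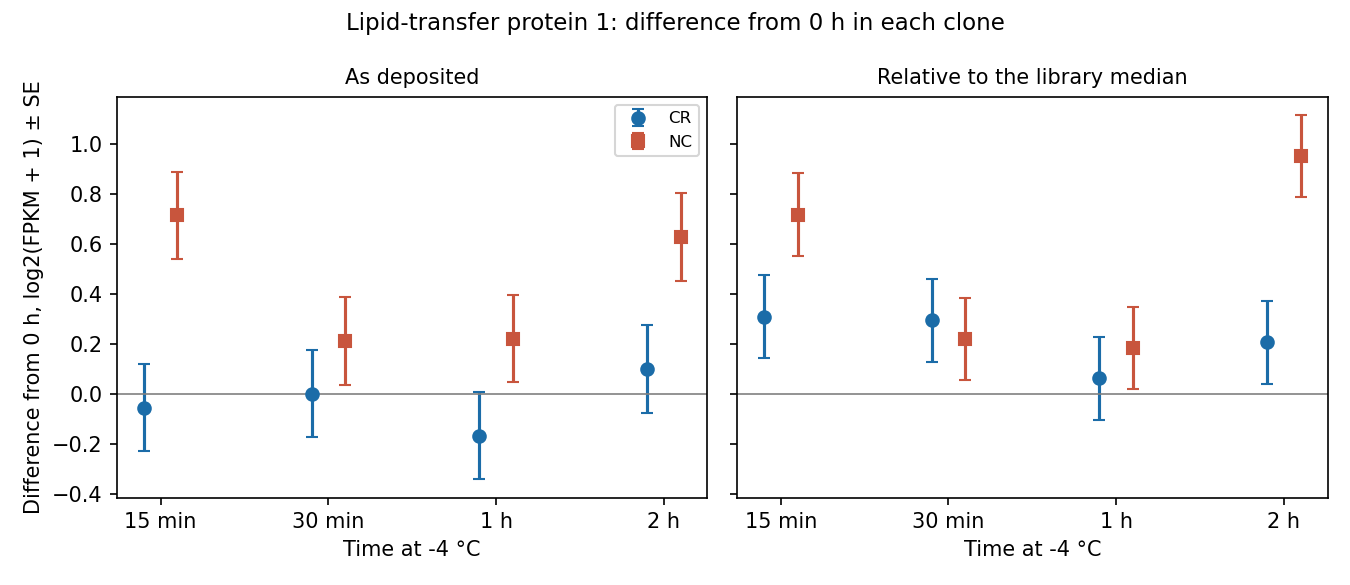
Difference in log2(FPKM + 1) of lipid-transfer protein 1 from 0 h at each time in CR and in NC, with SE, as deposited and relative to the library median. As deposited, the NC values at 15 min and 2 h are 0.71 and 0.63, and the CR values lie between -0.17 and 0.10.

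In FPKM as deposited CR exceeded NC most at 0 h, and relative to the library median it did so at 30 min. At 0 h the gene averaged 1152 ± 198 FPKM in CR and 631 ± 121 FPKM in NC (SD, n = 3 each), a CR minus NC difference of 0.87 ± 0.17 (SE) or 1.83-fold, and the libraries did not overlap. At 0 h 70.6% of the 143 genes were higher and 4.20% lower in CR than in NC at an adjusted p below 0.05 (limma), and the median of all genes was 0.59. On the relative scale these shares were 37.1% and 27.3%. The CR minus NC difference of the lipid-transfer protein was 0.10 after 15 min, 0.66 after 30 min, 0.48 after 1 h and 0.34 after 2 h. With 1 library left out the value at 15 min ran from -0.03, without replicate 1 of CR, to 0.21, without replicate 1 of NC, so its sign was not stable. At 2 h it ran from 0.19, without replicate 2 of NC, to 0.53, without replicate 1 of NC. At 30 min it ran from 0.52 to 0.82 and at 1 h from 0.43 to 0.52. The clones' libraries did not overlap at 30 min and 1 h and overlapped at 15 min and 2 h. Over the 5 times CR was higher by 0.49 ± 0.08 (SE), beside a median of 0.42 over all genes. Of the 143 genes, 34 had a larger CR minus NC difference at 0 h, and 119 had a larger one at 2 h, when the median of all genes was 0.84.

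The change in NC minus the change in CR was 0.77 after 15 min, 0.21 after 30 min, 0.39 after 1 h and 0.53 after 2 h, each with an SE of 0.25. At 15 min this was about 3 SEs and at 30 min it was below 1 SE. All 4 values share the 0 h libraries of both clones, where CR had the higher level. The median of all genes for the same difference was 0.42 at 15 min and -0.26 at 2 h. On the relative scale the gene had 0.41 after 15 min, -0.075 after 30 min, 0.12 after 1 h and 0.74 after 2 h (SE 0.23 each). The largest value was thus at 15 min as deposited and at 2 h on the relative scale.

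The level was also set against the other genes of the same library, since the medians of the libraries ran from 544 to 1285 FPKM. They were lowest in NC at 2 h, where they were 749, 544 and 555 FPKM, and highest in CR at 0 h, where they were 1285, 954 and 1059 FPKM. As a ratio to the library median, the gene stood at 1.07, 1.07 and 0.994 in the CR libraries at 0 h, and at 1.47, 1.24 and 1.19 after 15 min. It stood at 1.58, 1.26 and 1.06 after 30 min, at 1.02, 1.10 and 1.16 after 1 h, and at 1.10, 1.13 and 1.42 after 2 h. All 3 CR libraries at 15 min and at 2 h lay above all 3 at 0 h on this scale, which was not so for FPKM as deposited. In NC the ratio was 0.967, 0.710 and 0.799 at 0 h, 1.70, 1.19 and 1.20 after 15 min, and 0.918, 0.747 and 1.26 after 30 min. It was 0.885, 0.948 and 0.956 in NC at 1 h and 1.66, 1.44 and 1.65 at 2 h. The NC libraries at 15 min and at 2 h again lay above every NC 0 h library, and the highest mean ratio of the 10 groups, 1.59 ± 0.125 (SD, n = 3), was that of NC at 2 h.

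**Figure D3:**
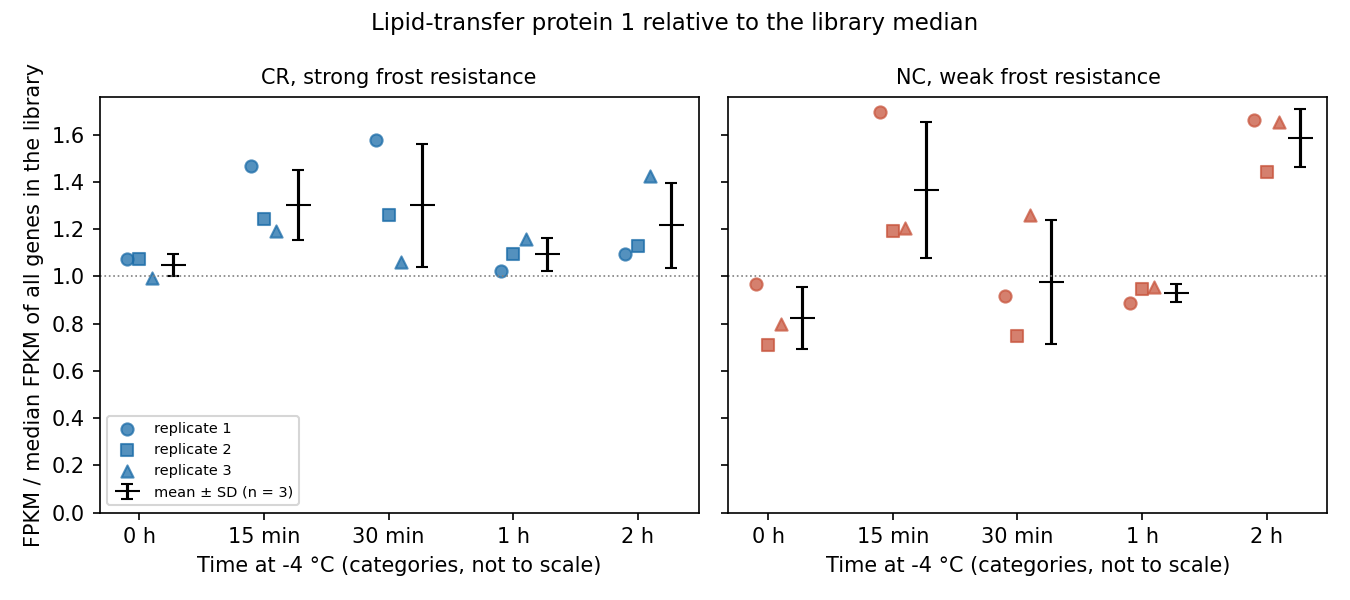
FPKM of lipid-transfer protein 1 divided by the median FPKM of the 143 genes in the same library, against time at -4 °C, with 1 point per library and the mean and SD of 3 libraries. NC at 2 h has the highest mean ratio, 1.59, and NC at 0 h the lowest, 0.825.

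Relative to the library median, the NC differences from 0 h were 0.72 after 15 min, 0.22 after 30 min, 0.18 after 1 h and 0.95 after 2 h (SE 0.17 each). In CR they were 0.31 after 15 min, 0.29 after 30 min, 0.06 after 1 h and 0.21 after 2 h. The CR minus NC difference was 0.35 at 0 h, -0.05 after 15 min, 0.43 after 30 min, 0.23 after 1 h and -0.39 after 2 h, so that it was highest at 30 min and its sign at 15 min and 2 h turned with the scaling. Averaged over the 5 times it was 0.11 ± 0.07 (SE). By level the gene ranked 82 to 116 of 143 in the NC 0 h libraries, 18 to 49 in those at 15 min and 21 to 35 in those at 2 h, where rank 1 is the most abundant gene. Its rank in CR libraries ran from 24 to 73 with a median of 54, and in NC libraries from 18 to 120 with a median of 79. The range of its 5 NC means on the relative log2 scale was 0.95, against 0.30 for the median gene, and 6 genes had a larger one. The corresponding range in CR was 0.31, against 0.23 for the median gene, with 35 genes larger.

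The table as a whole moved in CR as well. At 15 min in CR 0.699% of genes were higher and 60.1% lower than at 0 h, and the median of all genes was -0.39. On the relative scale 13.3% were higher and 17.5% lower. At 2 h in CR 0% were called in either direction by limma, where 6 genes had an unadjusted p below 0.05 and voom on the recovered reads also called 0. Without replicate 1 of CR at 0 h, whose library median of 1285 FPKM was the highest, the share called at 15 min in CR was 12.6%, and without replicate 2 of CR at 15 min it was 33.6%. The lipid-transfer protein, at -0.06 and 0.10 as deposited, had 12 genes above it at 15 min and 6 at 2 h.

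Of the green tissue markers, 2 of 7 fell at 15 min in NC, 5 of 7 at 2 h in NC and 5 of 7 at 15 min in CR, by limma. Of all genes 1.40%, 62.9% and 60.1% were lower in these comparisons. The marker counts at 2 h in NC and at 15 min in CR were thus near the share of all genes. On the relative scale 5 of 7 fell at 15 min in NC, 2 of 7 fell and 1 rose at 2 h in NC, and 1 of 7 fell at 15 min in CR, beside 5.59%, 26.6% and 17.5% of all genes lower. The summed FPKM of the 7 green markers, chlorophyll a-b binding proteins, the rubisco small chain, photosystem and oxygen-evolving proteins, ran from 5078 to 8160 FPKM in NC at 15 min and from 5014 to 6969 FPKM in NC at 2 h, against 8528 to 10230.4 FPKM in NC at 0 h. In NC at 30 min and at 1 h the sum was 8018 to 9705.0 and 8600 to 11160.4 FPKM. In CR the sum ran from 8870.4 to 13319.5 FPKM at 0 h, 7099 to 8725 FPKM after 15 min, 9165 to 9347 FPKM after 30 min, 9363 to 11059 FPKM after 1 h and 10319 to 10621 FPKM after 2 h. The Olee1-like protein, the pollen marker, stood at 402 to 551 FPKM in NC at 2 h, against 619 to 688 FPKM in NC at 0 h. Their part in the level of the lipid-transfer protein was not tested.

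The genes whose pattern was most like that of the lipid-transfer protein were found by Pearson's r over the 30 libraries on relative log2 values, given as a description without a test because the libraries share clone, time and scaling. The highest was histidine-containing phosphotransfer protein 1, an intermediate of cytokinin signalling, with r = 0.65 over all libraries, 0.34 over the 15 CR libraries and 0.78 over the 15 NC libraries. Next came the mitochondrial ATP synthase 6 kDa subunit (0.61), the 40S ribosomal protein S25-2 (0.58), the 60S ribosomal protein L14-1 (0.55) and the unnamed gene PaF106G0100004875.01 (0.54). The median r over the 142 other genes was -0.06. For the ATP synthase subunit r was 0.93 within NC and -0.32 within CR, of opposite sign in the clones. Its NC means were 471 FPKM at 0 h, 600.2 FPKM after 15 min, 520.5 FPKM after 30 min, 515 FPKM after 1 h and 516 FPKM after 2 h.

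The least like were chlorophyll a-b binding protein 151 (r = -0.76), the LHCII type I chlorophyll a-b binding protein (-0.73) and the 60S ribosomal protein L5-2 (-0.65). These values hold for the relative scale. As deposited, r over the 30 libraries was -0.007, -0.29 and 0.062 in that order, beside a median of 0.45 over the 142 other genes. For chlorophyll a-b binding protein 151, which holds chlorophyll in the light-harvesting antenna, r was -0.90 within NC and 0.04 within CR. Its NC means were 2436 FPKM at 0 h, 1801 FPKM after 15 min, 2228 FPKM after 30 min, 2573 FPKM after 1 h and 1371 FPKM after 2 h. They were lowest at the times when the lipid-transfer protein was highest. By mean FPKM over all libraries, 976 FPKM, the lipid-transfer protein ranked 53 of 143, between the 60S ribosomal protein L13a-4 at 989 FPKM and the 40S ribosomal protein S16 at 959 FPKM.

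**Figure D4:**
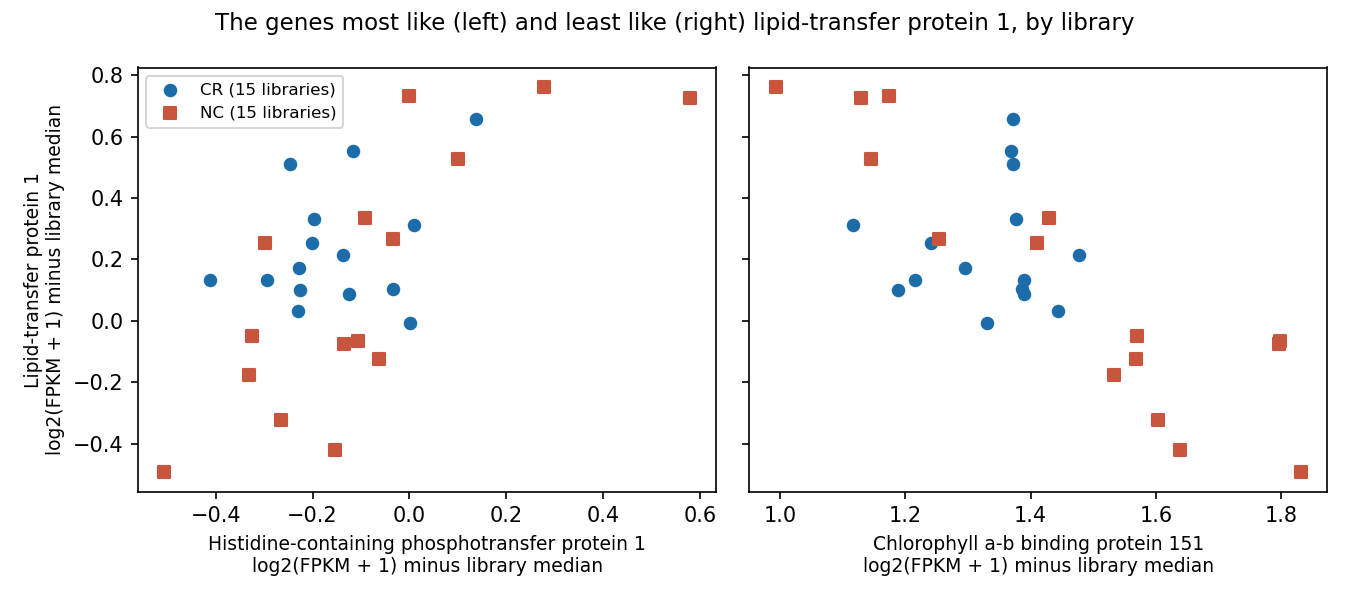
Lipid-transfer protein 1 against histidine-containing phosphotransfer protein 1 (left) and chlorophyll a-b binding protein 151 (right), as log2(FPKM + 1) minus the library median, with 1 point per library (15 CR and 15 NC). Over the 30 libraries r is 0.65 on the left and -0.76 on the right, and on the right the NC points alone give -0.90.

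Of the gene names related to lipid transfer, lipids and wax, 0 other than the lipid-transfer protein were in the table, so it was set beside 11 companions: 5 genes of cold and dehydration, 2 of defence and 4 of the cell wall and secreted proteins. At 15 min in NC 0 of the 11 companions were called by limma, where 0.699% of all genes were higher and 1.40% lower. HSP90-2, at -0.30, had an unadjusted p below 0.05 and was the 1 companion called lower relative to the library median, and voom called 0. The cold list had a median difference of -0.15 there, the defence list 0.11 and the wall list 0.01, beside 0.04 for all genes.

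At 2 h in NC, 4 of the 5 cold genes rose and 1 fell, where 4.90% of all genes were higher and 62.9% lower. The lists were chosen with earlier results of these data known, so counts and p-values of their members are a description. ARG2, related to an auxin-induced late embryogenesis abundant protein of mung bean, rose by 2.32 (adjusted p = 9.92e-05, limma), and metallothionein type 2, a metal-binding protein, rose by 1.92 (adjusted p = 9.92e-05, limma). RD19A, a cysteine protease induced by dehydration in Arabidopsis, rose by 0.81 (adjusted p = 0.00139, limma), and RCI2B, a small hydrophobic membrane protein induced by cold in Arabidopsis, rose by 0.73 (adjusted p = 0.0158, limma). RCI2B missed the threshold without replicate 2 or replicate 3 of NC at 2 h and without replicate 1 of NC at 0 h. The chaperone HSP90-2 fell by 0.74 (adjusted p = 9.92e-05, limma). The cold list's median was 0.81, beside -0.39 for all genes and 0.63 for the lipid-transfer protein itself.

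Within NC at 2 h the libraries were not ordered alike. Lipid-transfer protein 1 was highest in replicate 1 with 1245 FPKM, whereas ARG2 and metallothionein type 2 were highest in replicate 2 with 6019 and 5661 FPKM. RCI2B was lowest in replicate 1, at 1008 FPKM.

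Of the other companions at 2 h in NC, 1 of 2 defence genes and 3 of 4 wall genes fell and 0 rose, near the 62.9% of all genes that were lower. The thaumatin-like protein, of another pathogenesis-related family, fell by 0.47 (adjusted p = 0.00509, limma), and defensin-like protein 2, a small antimicrobial peptide, was -0.23 and was not called. Of the wall list, the Olee1-like protein fell by 0.50 (adjusted p = 0.000956, limma), the aspartyl protease AED3 fell by 0.58 (0.000313), and XTH9, which cuts and rejoins xyloglucan, fell by 0.33 (0.00941), while arabinogalactan protein 31 at -0.05 was not called. Relative to the library median the thaumatin-like protein stood at -0.14 and XTH9 at -0.01, and neither was called. The call of the thaumatin-like protein was lost without replicate 1 of NC at 0 h or replicate 2 of NC at 2 h, and that of XTH9 without replicate 3 of NC at 2 h. The list medians were -0.35 for defence and -0.42 for the wall, beside -0.39 for all genes.

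At 15 min in CR, 2 of the 11 companions fell: defensin-like protein 2 by 0.50 (adjusted p = 0.0108, limma) and XTH9 by 0.25 (adjusted p = 0.0467, limma). Of all genes 60.1% were lower in this comparison. On the relative scale neither was called, XTH9 stood at 0.11, and HSP90-2, AED3 and the Olee1-like protein were called higher at 0.33, 0.49 and 0.26. Both calls were lost without replicate 1 of CR at 0 h or replicate 3 of CR at 15 min, and that of XTH9 also without replicate 3 of CR at 0 h or replicate 2 of CR at 15 min. At 2 h in CR 0 of 11 were called by limma or voom, and 0 had an unadjusted p below 0.05. Before the frost, at 0 h, 4 of 11 were higher and 1 lower in CR than in NC, where 70.6% of all genes were higher and 4.20% lower. RCI2B was higher by 0.69 (adjusted p = 0.0169, limma), defensin-like protein 2 by 0.50 (0.00740), XTH9 by 0.49 (0.000232) and the thaumatin-like protein by 0.34 (0.0247). AED3 was lower at -1.15 (adjusted p = 9.66e-09, limma). Relative to the library median, RCI2B at 0.18, defensin-like protein 2 at -0.02, XTH9 at -0.03 and the thaumatin-like protein at -0.17 were not called, and 0 were called higher and 5 lower: AED3 at -1.67, RD19A at -0.65, HSP90-2 at -0.58, arabinogalactan protein 31 at -0.43 and the Olee1-like protein at -0.26. Without replicate 1 of CR at 0 h, RCI2B, defensin-like protein 2 and the thaumatin-like protein were not called. The call of RCI2B was also lost without replicate 3 of CR or replicate 1 of NC, and that of the thaumatin-like protein without replicate 2 or 3 of NC. The lipid-transfer protein had a relative difference of 0.35 in this comparison.

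**Figure D5:**
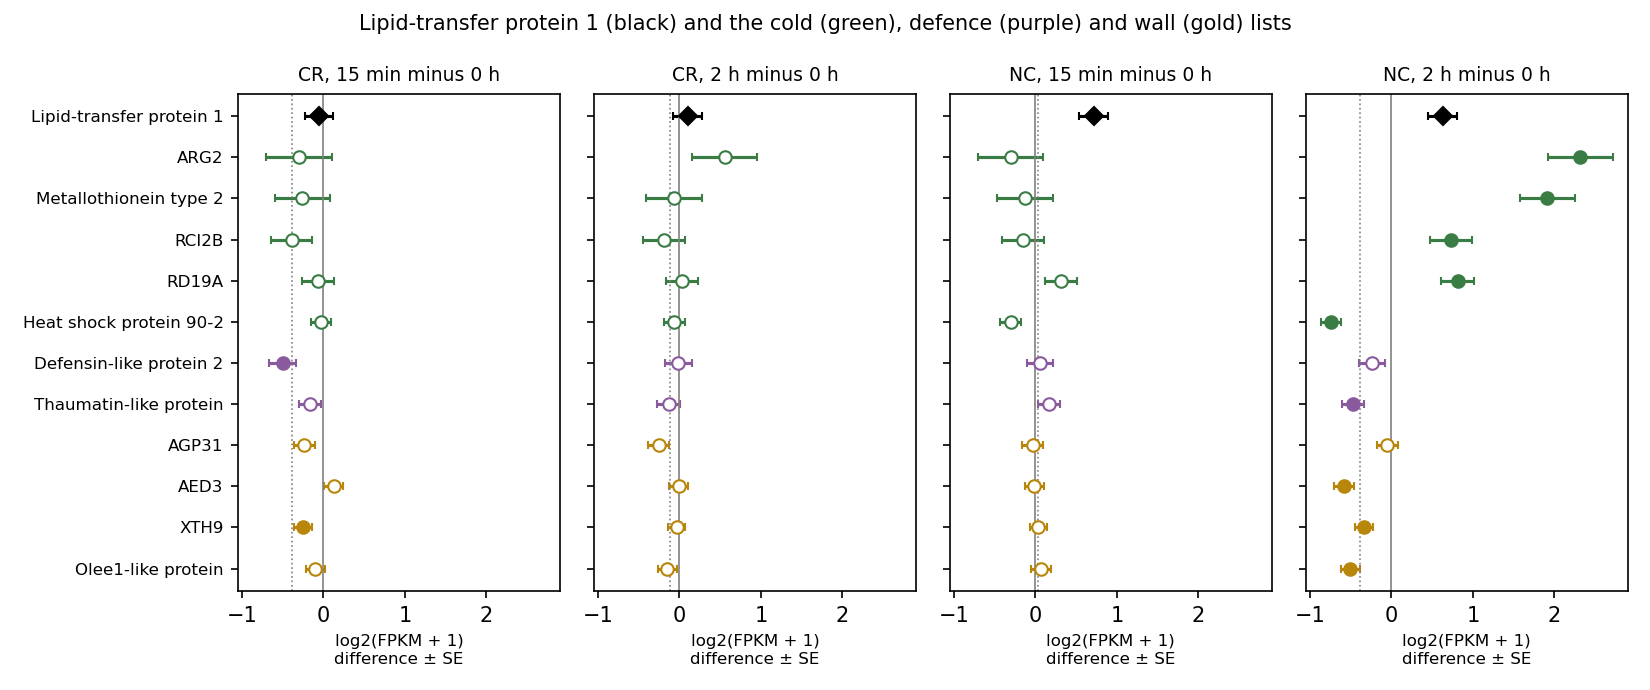
Difference in log2(FPKM + 1) from 0 h of the 11 companion genes by list in CR at 15 min and 2 h and NC at 15 min and 2 h, with filled points for an adjusted p below 0.05 and open points otherwise, a diamond for lipid-transfer protein 1 (not tested) and a dotted line for the median of all genes. In NC at 2 h 4 cold genes lie above 0 with the lipid-transfer protein at 0.63, and in NC at 15 min no companion is filled. The lists were chosen with earlier results of these data known.

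Among the 25 genes of the table on chromosome 6, the nearest to the lipid-transfer protein was RCI2B, from 26408418 to 26409114, a distance of 741039 bases. On relative log2 values RCI2B had r = 0.49 with it over the 30 libraries, and metallothionein type 2 also had r = 0.49. As deposited, r was 0.43 for RCI2B and 0.24 for metallothionein type 2, below the median of 0.45 over the 142 other genes.

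With any 1 library left out, the NC differences kept their sign at every time, as did the CR differences at 1 h and 2 h. Leaving out each library in turn gave 0.60 to 0.87 for NC at 15 min and 0.44 to 0.78 for NC at 2 h, with the lowest value at 2 h when replicate 1 of that group, which had 1245 FPKM, was left out. The CR minus NC difference at 0 h ran from 0.73 to 1.02, with the lowest value without replicate 1 of CR at 0 h. At 30 min the NC difference ran from 0.05, without replicate 3, to 0.36, and at 1 h from 0.13, without replicate 2 of NC at 0 h, to 0.37. In CR the differences at 15 min and 30 min took either sign, from -0.19 to 0.08 and from -0.12 to 0.14, with the highest values without replicate 1 of CR at 0 h. Those in CR at 1 h ran from -0.25 to -0.03 and those at 2 h from 0.02 to 0.24.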

How the data were processed

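RNA sequencing measured transcripts in 30 libraries. The authors deposited FPKM values, 1 column per library; 143 complete genes were used and 1 incomplete last entry was left out. The submitters' processing notes list HISAT2, GATK, SAMtools 0.1.18 and Picard without saying what each did. Which read counter, annotation and build were used is not given in the sources. As for depth, FPKM times gene length gave whole multiples of a step per library for 4290 of 4290 values (tolerance 1e-06), and hence reads per value. FPKM is a share of a total, so abundant transcripts move all values of a library together.

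log2(FPKM + 1) was fitted with limma 3.58.1 in R 4.3.3, with a mean-variance trend and 10 group means over all 30 libraries (28.1 degrees of freedom). Two-sided p-values were adjusted by Benjamini-Hochberg over all 143 genes, with a threshold of 0.05. A filter of at least 1 FPKM in at least 3 libraries removed 0 genes. Relative values are centred on the library median. The fit was tested on simulated data with independent noise and changes set in both directions. The simulation held no shift of most genes in the same direction, so it does not bear on comparisons where the whole table moved. Alternatives were a pseudocount of 0.1, no filter, relative values, compared groups alone, no trend, voom on recovered reads, a replicate block and leaving out libraries.

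The gene and the lists, matched by words in the deposited names, were chosen with earlier results of these data known. Named genes were the lipid-transfer protein, the 5 most and 3 least like it, all list members and its neighbours in mean FPKM. Its levels and differences carry no test, because it was chosen on them.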

Additional observations from a re-analysis of the deposited data

Results flagged for a closer look

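At 1 h the lipid-transfer protein lay above the 0 h mean of its clone in all 3 NC libraries and below it in all 3 CR libraries. The change in NC minus the change in CR was 0.39 on the log2(FPKM + 1) scale with an SE of 0.25, and the difference was not tested because the gene was chosen on its values. Relative to the library median it was 0.12. In both clones the values at 1 h overlapped those at 0 h. As a ratio to the library median, the CR libraries at 1 h stood at 1.02, 1.10 and 1.16, beside a CR mean of 1.05 at 0 h, so the CR side did not hold on that scale.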

How the results depend on the processing

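Settings tried for the lipid-transfer protein were compared with its SD within groups, 0.23 on the log2(FPKM + 1) scale. The pseudocount and voom moved each difference by less than this SD, and at these levels the pseudocount can hardly matter. The filter, which removed 0 genes, the trend and fitting the compared groups alone cannot change a difference of group means. They are therefore no check of these differences. Relative to the library median, the values for CR were 0.31 at 15 min, 0.29 at 30 min and 0.062 at 1 h, and that for NC at 2 h was 0.95. CR minus NC was then 0.35 at 0 h, 0.43 at 30 min, 0.23 at 1 h, -0.39 at 2 h and 0.11 on average, and the change in NC minus that in CR was 0.41 at 15 min, -0.075 at 30 min and 0.12 at 1 h. The share of genes called, 60.8% for CR at 15 min, 2.10% for NC at 15 min, 67.8% for NC at 2 h and 0% for CR at 2 h, was 30.8%, 14.7% and 41.3% for the first 3 relative to the median. With the compared groups alone it was 37.8% for CR at 15 min and also 37.8% for NC at 2 h, with 0.699% for CR at 2 h, and without the trend it was 0.699% for NC at 15 min. Leaving out libraries in turn gave 12.6% to 74.1% for CR at 15 min, 0% to 4.20% for NC at 15 min and 42.0% to 81.1% for NC at 2 h. Companions called in CR at 15 min were 1 without the trend, 0 with the groups alone and 0 to 2 with libraries left out, those in CR against NC at 0 h were 2 to 6, and NC at 15 min had 1 relative to the median. Without both libraries whose medians lay farthest from their group's, an alternative chosen after seeing the data, 32.9% of genes and 0 companions were called in CR at 15 min, 3.50% of genes in NC at 15 min and 3 companions in CR against NC at 0 h, and the difference between the clones' changes of the lipid-transfer protein at 2 h was 0.21. Of differences called on either scale, signs turned relative to the median for HSP90-2 (0.33), XTH9 (0.11) and the Olee1-like protein (0.26) in CR at 15 min. In CR against NC at 0 h they turned for defensin-like protein 2 (-0.021), the thaumatin-like protein (-0.17), arabinogalactan protein 31 (-0.43), XTH9 (-0.029) and the Olee1-like protein (-0.26). With values as deposited, 3 of the 5 most like genes and 0 of the 3 least like were among those named. Of companions called on neither scale, 5 turned in CR at 15 min, 5 in CR at 2 h and 2 in NC at 2 h. The cause of these shifts was not tested.

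Same-numbered libraries had a median r of 0.097 in CR and 0.092 in NC, against -0.063 and -0.067 for libraries of different numbers. Both medians were under the threshold of 0.1, so the main fit used no pairing. In each clone 14 of 30 pairs were over 0.1, so whether the numbers pair the samples is not settled. Every group holds the same replicate numbers, so a replicate block cannot change a difference, and the lipid-transfer protein stayed at 0.71 for NC at 15 min. With the block 62.9% of genes were called for CR at 15 min, against 60.8% without it.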
